A study of Mus musculus with 4 samples.

Results

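The comparison described here sets fibroblasts recovered from a tumour against the same kind of cells before injection, in a line that lacks p65. It rests on 2 of the 4 arrays of the study, 1 array a group, and takes in all 45037 probe sets of the array. These stand for 18193 genes with a probe set of their own, of which 12443 were compared because their signal reached the floor on at least 1 of the 2 arrays. The p65-/- tumour cells and the p65-/- pre-injection cells are both mouse embryonic fibroblasts (MEFs) without Rela, the gene of p65, and both carry human oncogenic HRAS from the retroviral vector pBabe-HRASG12V-Hygro. The tumour cells had grown in SCID mice, were freed with collagenase, and were kept under hygromycin for 2 weeks before RNA was taken. The pre-injection cells were not passed through an animal, and all cells were grown in DMEM with 10% serum. The other 2 arrays hold p65+/+ tumour cells and p65+/+ pre-injection cells, made with the same vector, and are used below as a yardstick. The labels do not say how many mice, tumours or clones an array stands for, so the difference between 2 arrays has no replicate check and no p-value is given.

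p65 is the main activating subunit of NF-kB, a transcription factor that inhibitor proteins hold in the cytoplasm until a kinase complex marks them for destruction. Once in the nucleus it turns on genes of inflammation, survival and adhesion, together with its own inhibitors. Oncogenic Ras acts through several routes, the best known being the MAPK cascade, which ends in ERK and turns on transcription factors and its own feedback inhibitors, the Sprouty proteins and the dual-specificity phosphatases. SCID mice lack mature T and B cells but keep macrophages, granulocytes and natural killer cells.

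The targeted gene was at the same low level on both p65-/- arrays. The Rela signal was 209 in tumour cells, against 214 in pre-injection cells, while it was 1457 on the p65+/+ tumour and 1479 on the p65+/+ pre-injection array. The p65-/- pre-injection array was the dimmest of the series: 13015 probe sets reached a signal of 200 on the p65-/- tumour array, against 11153 on the p65-/- pre-injection array, with 13333 to 13419 on the p65+/+ arrays. The 75th percentile of signal was 242 for p65-/- tumour cells, against 198 for p65-/- pre-injection cells, with 255 to 256 for the p65+/+ arrays. The medians lay closer together, at 92.7 for p65-/- tumour cells and 87.8 for p65-/- pre-injection cells, and these 2 medians served as floors. In the scanner images, which are not normalised, the median intensity was 79.0 for p65-/- tumour cells and 78.0 for p65-/- pre-injection cells, and no region of the array differed by more than 0.10 on the log2 scale among 100 blocks. Across 10082 genes above all 4 floors, the p65-/- tumour array correlated at 0.87 with the p65-/- pre-injection array, at 0.95 with the p65+/+ pre-injection array and at 0.93 with the p65+/+ tumour array, a description across genes, which are not replicates.

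Tumour cells had far more genes at a higher signal than at a lower one. At a ratio of 2-fold or more, 1705 genes were higher in tumour cells, which is 13.7% of those compared, and 184 were lower, which is 1.48%. Higher genes made up 90.3% of the counted genes on the deposited scale and 73.4% after quantile normalization, which gives both arrays 1 distribution of signals. After that step 1180 genes were higher (9.48%) and 428 were lower (3.44%). All 184 lower genes remained among the lower genes then, and 1180 of the 1705 higher genes remained among the higher ones. Quantile normalization moved the median log2 difference of all compared genes to -0.18, against 0.03 on the deposited scale, so list medians below are to be read against 0.03. The same comparison in p65+/+ cells gave 112 higher (0.958%) and 89 lower genes (0.761%) of 11695.

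**Figure D1:**
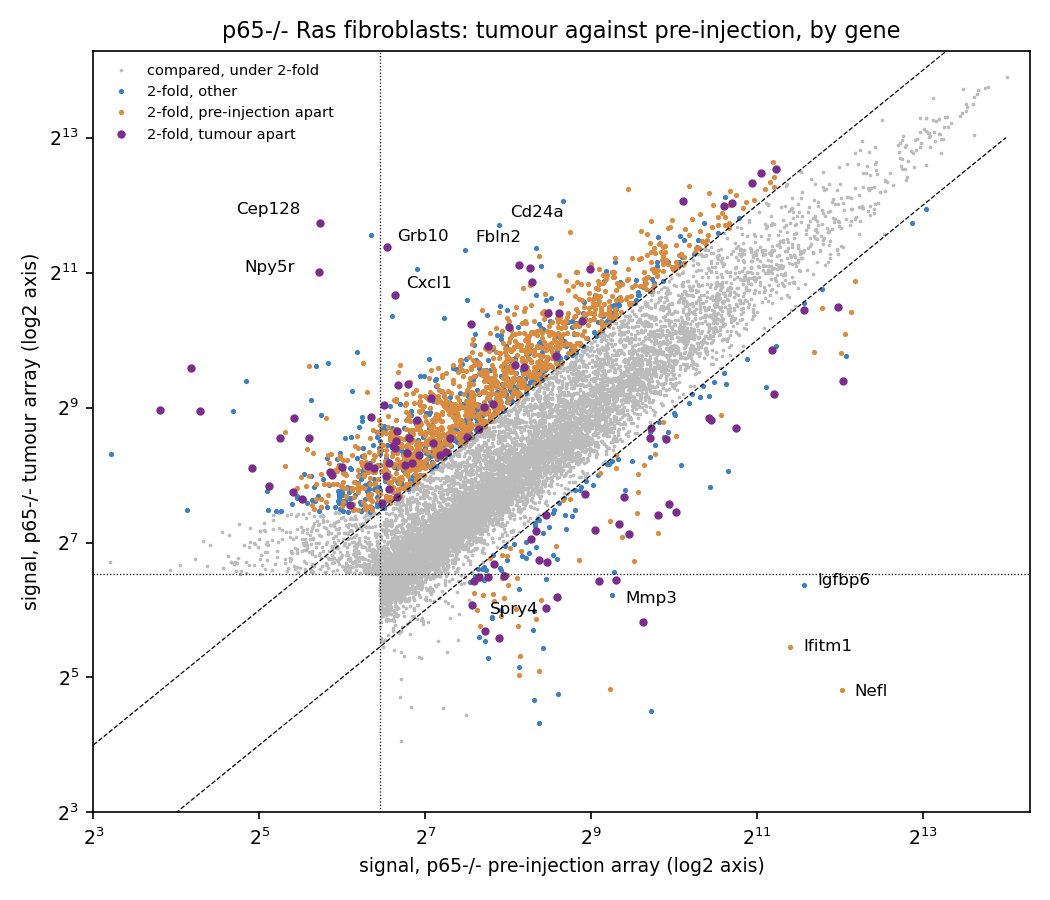
Signal of each compared gene in p65-/- tumour cells (vertical) and p65-/- pre-injection cells (horizontal), both on log2 axes. Dashed lines mark 2-fold, dotted lines the array floors, and colours show which of the 2 p65-/- arrays lies apart from both p65+/+ arrays. The 1705 higher genes are mostly orange, the pre-injection array lying apart. Signals are drawn without the floors, so genes not counted as 2-fold, such as Krt18 (126.6 against 30.7), can also lie beyond a dashed line.

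Which of the 2 arrays stood apart was read from the p65+/+ arrays. For 1108 of the 1705 higher genes the tumour signal was within a factor of 1.5 of the range of the 2 p65+/+ arrays and the pre-injection signal was 2-fold or more outside that range. For 67 genes (3.93%) it was the tumour signal that lay outside and the pre-injection signal that lay near the p65+/+ arrays. The remaining 530 had neither pattern. Among the 184 lower genes the split was different, with 53 genes where the pre-injection array stood apart, 37 where the tumour array did, and 94 with neither pattern. These counts describe 4 arrays, and the p65+/+ arrays come from another line of cells.

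The share of higher genes moved with gene size and signal level. It was 4.47% in the fifth of genes with the shortest genomic span in the RefSeq gene table, and 8.82%, 12.8%, 21.8% and 20.6% in the next groups up to the longest. It was 2.21% in the fifth of genes with the lowest p65+/+ signal and 29.1% in the fifth with the highest. The floors limit the ratio that a gene of low signal can reach, so a rise with signal is in part built in. The p65+/+ arrays that set these groups correlated at 0.93 and 0.95 with the p65-/- tumour array, against 0.81 and 0.82 with the p65-/- pre-injection array. In p65+/+ cells the share of higher genes by span stayed between 0.563% and 1.17%. Probe sets of 1 gene also differed more from each other here: the within-gene SD of the log2 difference was 0.40 over 5415 genes, against 0.19 over 5222 genes in p65+/+ cells. Of the 1129 higher genes with several compared probe sets, 428 were 2-fold higher in all of them and 149 in a minority of them. Among genes named below, Top2a, Smc3, Igfbp7, Cdkn1b, Nfkbiz, Tbx18, Trp53inp1 and others were 2-fold higher in 1 of 2 compared probe sets. The part of dim signal, gene span and probe position in the higher calls was not tested.

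**Figure D2:**
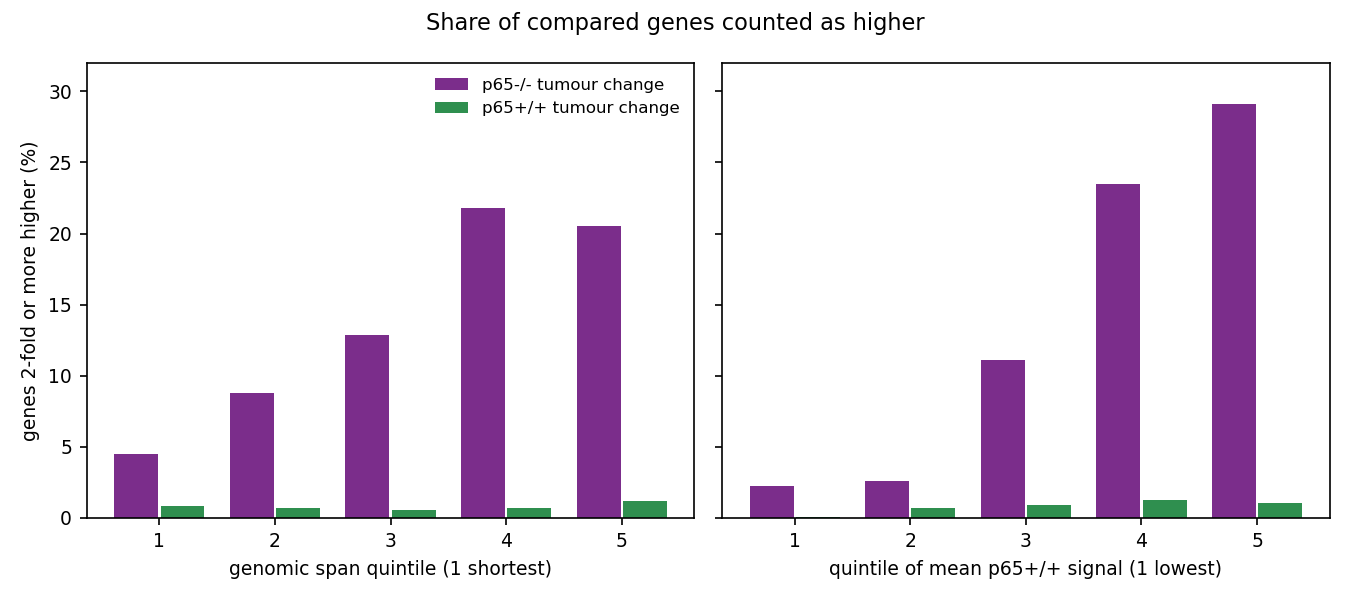
Percent of compared genes counted as 2-fold or more higher in tumour cells, in 5 equal groups by genomic span (left) and by mean p65+/+ signal (right), for the p65-/- and the p65+/+ tumour change. The p65-/- bars climb to 21.8% and 20.6% at the longest spans and to 29.1% at the highest signals, while no p65+/+ bar passes 1.29%. The array floors hold down the share at the lowest signals.

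Several of the largest increases were in genes that stood apart in tumour cells alone. Grb10, an imprinted gene whose product is an adaptor that binds insulin and IGF receptors, had a signal of 2654 in tumour cells, against 93.1 in pre-injection cells, and it was under the floor on both p65+/+ arrays (33.2 and 33.9). This is a 28.5-fold ratio, and all 3 compared probe sets of Grb10 were 2-fold higher. Npy5r, a receptor for neuropeptide Y, had 2069 in tumour cells, against 52.9 in pre-injection cells, a ratio of at least 23.6-fold, and was also under the floor in p65+/+ cells. Cxcl1, a neutrophil-attracting chemokine, had 1635 in tumour cells, against 99.7 in pre-injection cells, a ratio of 16.4-fold seen in 3 of 3 probe sets. Cxcl1 is a classic NF-kB target; in cells that have p65 its signals were 42.9 in tumour and 51.8 in pre-injection cells, both under the floor. Cep128, which encodes a centriole protein, had the highest ratio of all, at least 39.0-fold, with 3419.7 in tumour cells, against 52.96 in pre-injection cells, but only 1 of its 2 probe sets differed by 2-fold. A further table deposited by the authors gives signed quotients of the log2 signals, and there Cep128 had 1.23 and Npy5r 1.02, where the signals above give 2.05 and 1.92, so the authors' deposited table shows little difference for Npy5r and a smaller one for Cep128.

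Other genes of this pattern had a signal above the floor in p65+/+ cells before injection. Cxcl12, the chemokine ligand of CXCR4, had 2224 in tumour cells, against 281 in pre-injection cells (7.92-fold). Cyp1b1, a cytochrome P450 of steroid and xenobiotic metabolism, had 767 in tumour cells, against 18.1 in pre-injection cells (at least 8.74-fold). Both were lower in tumour cells of the p65+/+ line, where Cxcl12 had 203 against 969 before injection and Cyp1b1 had 70.5 against 288. Tagln, the actin-binding protein transgelin, had 1859.7 in tumour cells, against 312 in pre-injection cells (5.97-fold), and Ccng1, cyclin G1, a p53 target, had 2125 in tumour cells, against 509 in pre-injection cells, where both p65+/+ arrays read close to 350 (347 and 349).

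A second group of large increases had p65+/+ levels that lay between the 2 p65-/- arrays or spread widely. Mospd1, which encodes a membrane protein with a sperm-protein domain, had 3013 in tumour cells, against 81.3 in pre-injection cells (at least 34.3-fold), and 228 on the p65+/+ tumour and 282 on the p65+/+ pre-injection array. For Mospd1 too the authors' deposited table gives a smaller difference, with a quotient of 1.07 where these signals give 1.82. Fbln2, an elastic fibre glycoprotein, had 2573 in tumour cells, against 178 in pre-injection cells (14.5-fold). Cd24a, a surface glycoprotein that engages Siglec receptors, had 3335 in tumour cells, against 238 in pre-injection cells (14.0-fold), with all 3 probe sets higher. Sema3c, a secreted guidance cue, had 1314 in tumour cells, against 96.6 in pre-injection cells (13.6-fold). Gap43, a growth cone protein, had 2649 in tumour cells, against 324 in pre-injection cells (8.17-fold), and 731 on the p65+/+ tumour and 812 on the p65+/+ pre-injection array. Hs6st2, an enzyme that adds sulfate to heparan sulfate chains, had 2114 in tumour cells, against 119 in pre-injection cells (17.7-fold).

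Some of these genes went the other way in the p65+/+ line. Ndn, an imprinted growth-restraining gene, had 1282 in tumour cells, against 149.8 in pre-injection cells (8.56-fold, 6 of 7 probe sets), but in the p65+/+ line it had 24.1 in tumour and 661 in pre-injection cells. Cdh11, the cadherin of mesenchymal cells, had 812 in tumour cells, against 56.8 in pre-injection cells (at least 9.25-fold), and 13.9 in p65+/+ tumour cells against 585 before injection, although only 1 of 2 probe sets of Cdh11 was 2-fold higher in p65-/- cells.

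In the most frequent pattern the tumour cells had a p65+/+-like level and the pre-injection array alone was low. Malat1, a nuclear long noncoding RNA, had 3092 in tumour cells, against 428 in pre-injection cells, and 4764 on the p65+/+ tumour and 3087 on the p65+/+ pre-injection array, a 7.22-fold ratio in p65-/- cells with 5 of 7 probe sets higher. Zfp281, a zinc finger transcription factor, had 795 in tumour cells, against 103 in pre-injection cells, with 1138 and 1002 in p65+/+ cells. Nrp1, a co-receptor for semaphorins and VEGF, had 786 in tumour cells, against 48.5 in pre-injection cells (at least 8.96-fold). Cavin2, a component of caveolae, Vgll3, a cofactor of TEAD factors, and Tmem106b, a lysosomal membrane protein, had the same arrangement, with ratios of 7.29-fold, at least 9.25-fold and 7.25-fold.

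**Figure D3:**
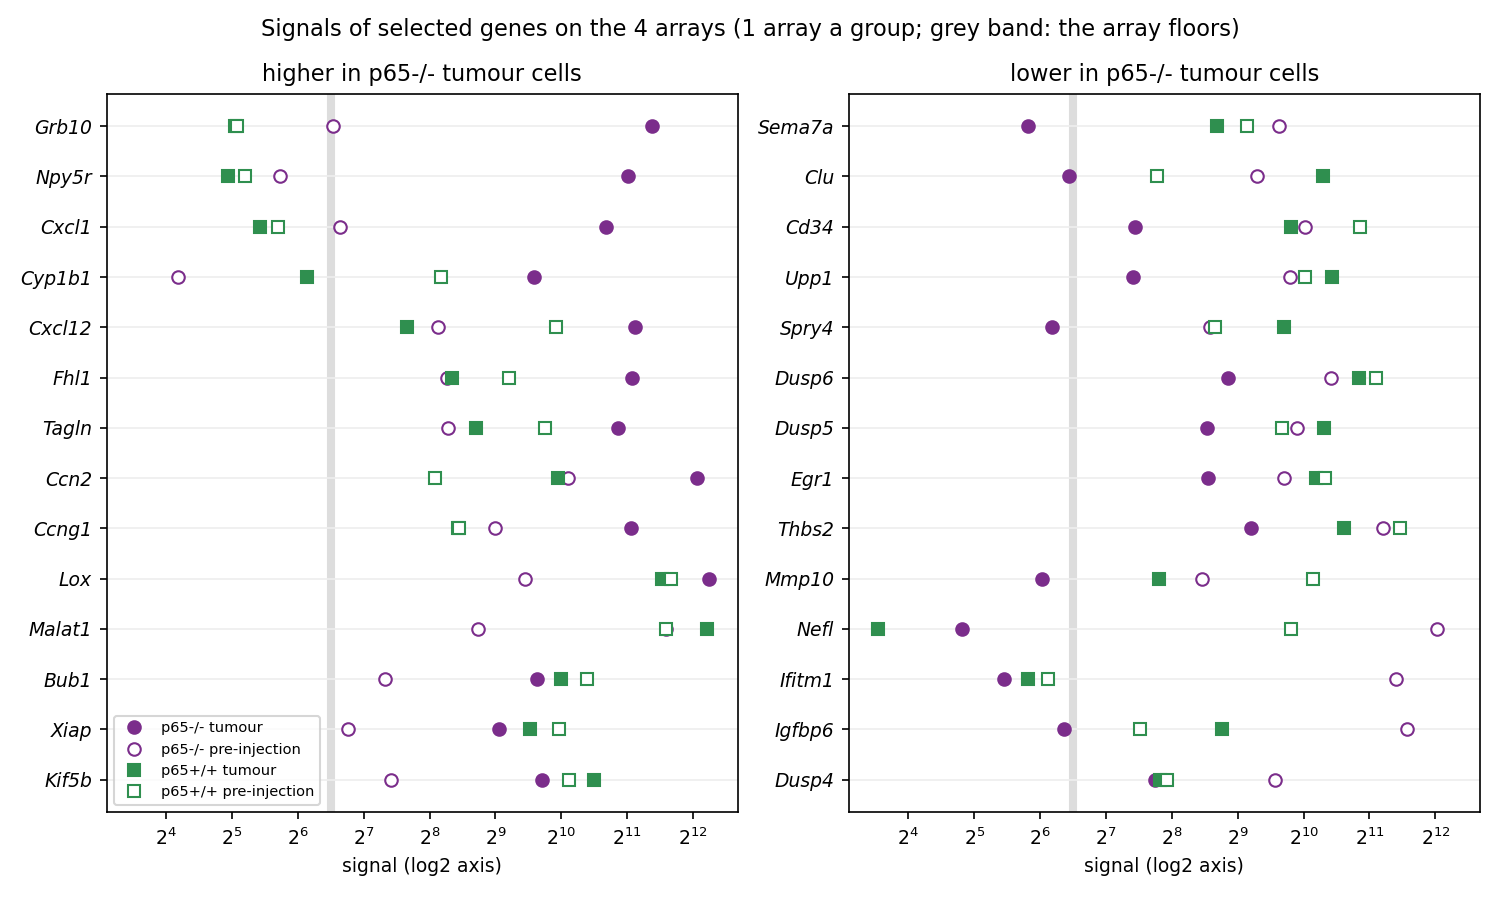
Signals on a log2 axis of 14 higher genes (left) and 14 lower genes (right) on the 4 arrays, with p65-/- in purple circles and p65+/+ in green squares, filled for tumour and open for pre-injection cells. From Grb10 to Ccng1 and from Sema7a to Mmp10 the filled purple circle lies outside the other 3 signals or at their edge, while from Lox to Kif5b and for Nefl, Ifitm1, Igfbp6 and Dusp4 it is the open purple circle.

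The largest decreases were in genes with a strong signal before injection that was at or under the floor afterwards. Nefl, the light chain of neurofilaments, had 28.2 in tumour cells, against 4178 in pre-injection cells, a ratio of at least 45.1-fold. It was also lower in p65+/+ tumour cells, at 11.6 against 894 before injection, so both genotypes lacked a signal above the floor after tumour growth. Igfbp6, a binding protein with a preference for IGF-II, had 82.5 in tumour cells, against 3044 in pre-injection cells (at least 32.8-fold lower). Ifitm1, an interferon-induced membrane protein, had 43.7 in tumour cells, against 2708 in pre-injection cells (at least 29.2-fold lower), and it was under the floor on both p65+/+ arrays. Each of Igfbp6 and Ifitm1 was measured by 1 compared probe set.

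Sema7a, Clu, Cd34 and Upp1 were lower in p65-/- tumour cells than on all 3 other arrays. Sema7a, a membrane-anchored semaphorin, had 56.5 in tumour cells, against 788 in pre-injection cells (at least 8.50-fold lower, 1 of 2 probe sets). Clu, the extracellular chaperone clusterin, had 86.9 in tumour cells, against 629 in pre-injection cells (at least 6.79-fold lower, 4 of 4 probe sets). Cd34, a sialomucin of progenitor, endothelial and some fibroblast cells, had 175 in tumour cells, against 1041 in pre-injection cells (5.97-fold lower), and 899.7 on the p65+/+ tumour and 1854 on the p65+/+ pre-injection array. Upp1, uridine phosphorylase, had 170.3 in tumour cells, against 892 in pre-injection cells (5.23-fold lower). Ank, a pyrophosphate transporter, with 671 against 4187, and Pla2g7, a secreted phospholipase, with 86.1 against 547, had the same arrangement.

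Rgs16, a brake on G protein signalling, had 416 in tumour cells, against 1717 in pre-injection cells (4.13-fold lower, 3 of 3 probe sets). Kcnn4, a calcium-activated potassium channel, had 267 in tumour cells, against 1606 in pre-injection cells (6.03-fold lower), and Glipr1, a secreted p53-regulated protein, had 227 in tumour cells, against 1379 in pre-injection cells (6.07-fold lower). In a further set the pre-injection array was the high one: Ntrk3, the neurotrophin-3 receptor, had 106 in tumour cells, against 730.0 in pre-injection cells, Chrm3, a muscarinic receptor, had 135 in tumour cells, against 665 in pre-injection cells, and Blnk, an adaptor known from B cells, had 28.3 in tumour cells, against 597 in pre-injection cells. For Ntrk3 only 1 of 3 compared probe sets was 2-fold lower.

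Genes driven by the Ras-MAPK cascade were lower in tumour cells more often than higher. The members of this list and of those below were chosen with earlier results of these data known, so their shares are descriptions. Of 21 compared genes on this list, 6 were lower (28.6%, against 1.48% of all compared genes) and 1 was higher (4.76%, against 13.7%). The median log2 difference was -0.37 against 0.03 for all genes. After quantile normalization the median was -0.57 against -0.18, with 9 lower and none higher. In p65+/+ cells 2 of 20 were higher in tumour cells and none lower, with a median of 0.33. The 9 feedback inhibitors had a median of -0.89 and held 4 of the 6 lower genes. Spry4, a Sprouty protein, had 72.9 in tumour cells, against 384 in pre-injection cells (at least 4.14-fold lower), and was 2.05-fold higher in p65+/+ tumour cells, although 1 of its 2 probe sets in p65-/- cells differed by less than 2-fold. Dusp6, the cytoplasmic phosphatase of ERK, had 460.1 in tumour cells, against 1369 in pre-injection cells (2.98-fold lower). Dusp5, the nuclear phosphatase of ERK, had 371 in tumour cells, against 956 in pre-injection cells (2.58-fold lower). Dusp4, a nuclear phosphatase of several MAP kinases, had 215 in tumour cells, against 755 in pre-injection cells (3.51-fold lower), and here the tumour signal lay near the p65+/+ arrays (227 and 244).

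The 12 transcription factors and other targets of the cascade had a median of -0.31. Egr1, an immediate early zinc finger factor, had 375 in tumour cells, against 837 in pre-injection cells (2.23-fold lower). Fosl1, the AP-1 subunit FRA1, had 966 in tumour cells, against 2399.8 in pre-injection cells (2.49-fold lower). Spry1 (log2 difference -0.89), Etv5 (-0.87) and Plaur (-0.71) did not reach 2-fold on the deposited scale. Ereg, the EGF receptor ligand epiregulin, was the higher one, with 319.9 in tumour cells, against 149 in pre-injection cells (2.14-fold), and its p65+/+ signals were 4659 in tumour and 3205 in pre-injection cells.

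Dusp5 and Vcl, which moved in opposite directions, both hold CArG boxes, the letters bound by serum response factor (SRF), in the 300 bases around their start. Their RefSeq windows are printed because they show the same box upstream of a lower gene of the Ras list and a higher gene of the contractile list. The windows run from 250 bases before to 50 after the start on assembly GRCm38.p6, 5′ to 3′ on the plus strand, at chr19:53528895-53529194 for Dusp5 and chr14:20929148-20929447 for Vcl, with CArG boxes in capitals.
Dusp5: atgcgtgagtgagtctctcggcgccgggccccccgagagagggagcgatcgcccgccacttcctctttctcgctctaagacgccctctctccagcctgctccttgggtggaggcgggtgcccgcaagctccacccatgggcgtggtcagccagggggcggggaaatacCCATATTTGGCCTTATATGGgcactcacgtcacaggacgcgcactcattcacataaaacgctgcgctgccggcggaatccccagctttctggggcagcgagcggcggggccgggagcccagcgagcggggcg
Vcl: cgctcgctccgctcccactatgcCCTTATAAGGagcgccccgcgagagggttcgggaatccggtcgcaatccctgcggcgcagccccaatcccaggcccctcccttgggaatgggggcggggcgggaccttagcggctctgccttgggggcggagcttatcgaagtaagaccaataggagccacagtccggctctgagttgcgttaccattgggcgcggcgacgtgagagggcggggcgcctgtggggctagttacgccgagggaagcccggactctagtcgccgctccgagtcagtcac
The Dusp5 window holds 2 adjacent boxes, and the Vcl window 1. Of 32851 RefSeq windows, 1.63% hold a CArG box on either strand. Windows were found for 2 of the 6 lower Ras-MAPK genes (Dusp5 and Dusp6) and for 4 of the 6 higher contractile genes (Ankrd1, Cald1, Ccn1 and Vcl). The windows of Dusp6, Ankrd1, Cald1 and Ccn1 held no CArG box, so the box was not shared by either set. The AP-1 letters TGANTCA, held by 7.81% of all windows, were in 1 Cald1 window, and the ETS letters CCGGAAG, held by 8.86%, were in none of these. A match in the letters is a description and says nothing of what bound there.

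NF-kB regulators and targets were higher more often than lower, as were all compared genes (13.7% higher and 1.48% lower). Of 13 compared subunits and regulators 5 were higher (38.5%) and none lower, with a median of 0.74 on the deposited scale, and in 3 of the 5 the pre-injection array stood apart. The subunits Nfkb2 and Relb did not reach 2-fold: Nfkb2 had 322 in tumour cells, against 323 in pre-injection cells, and Relb had 90.3 in tumour cells, against 137 in pre-injection cells, its tumour signal lying under the floor. Cyld, a deubiquitinase that restrains the pathway, had 552 in tumour cells, against 170.0 in pre-injection cells (3.25-fold). Nfkbiz, a nuclear IkB protein, had 603 in tumour cells, against 235 in pre-injection cells (2.57-fold), and Tnfaip3, the ubiquitin-editing inhibitor A20, had 267 in tumour cells, against 110.2 in pre-injection cells (2.43-fold). Ikbkg, the scaffold of the IKK complex, and the kinase Tbk1 were 2.38-fold and 2.32-fold higher. For Ikbkg this rests on 1 of 6 compared probe sets, and both genes were under 2-fold with the arrays at a common 75th percentile (log2 differences of 0.97 and 0.93), as was Ikbkg in the authors' deposited table (0.95).

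Of 20 compared NF-kB target genes 7 were higher (35.0%) and 2 lower (10.0%), with a median of 0.61 (0.46 after quantile normalization). Beside Cxcl1, the higher ones included Ptx3, a soluble pattern recognition protein, with 496 in tumour cells, against 25.7 in pre-injection cells (at least 5.65-fold). Ptgs2, the prostaglandin synthase COX-2, had 1245 in tumour cells, against 437 in pre-injection cells (2.85-fold), and Ccl2, a monocyte chemokine, had 506 in tumour cells, against 198 in pre-injection cells (2.55-fold). Both stayed well below the p65+/+ cells, in which Ptgs2 was 5627 and 4232 and Ccl2 was 3339 and 2671. Gadd45b, a stress-induced growth regulator, Vcam1, an adhesion molecule, and Lif, an IL-6 family cytokine, were 3.65-fold, 2.71-fold and 2.28-fold higher.

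The 2 lower targets were Mmp3 and Ccl5. Mmp3, stromelysin 1, had 74.8 in tumour cells, against 612 in pre-injection cells (at least 6.60-fold lower), and was also lower in p65+/+ tumour cells, at 1738 against 6517 before injection. Ccl5, a chemokine for T cells and monocytes, had 109 in tumour cells, against 297 in pre-injection cells (2.71-fold lower). Saa3 (70.05 against 95.6) and Cxcl5 (100.2 against 5.40) were no more than slightly above the floor on both p65-/- arrays, while their p65+/+ pre-injection signals were 1380.0 and 2277.

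Interferon-stimulated genes were mostly level or lower, with 1 higher and 2 lower of 17 and a median of -0.11. The shares are 5.88% and 11.8%, against 13.7% and 1.48% of all compared genes. The 3 interferon-induced transmembrane genes were the lowest of the list. Beside Ifitm1, Ifitm3 had 3948 in tumour cells, against 8418 in pre-injection cells (2.13-fold lower) and Ifitm2 had 3036 in tumour cells, against 5938 in pre-injection cells, a log2 difference of -0.97, just short of 2-fold. Ifit2, an RNA-binding antiviral protein, was the higher one, with 344 in tumour cells, against 71.2 in pre-injection cells (at least 3.91-fold), while its relatives Ifit1 (76.8 against 90.04) and Ifit3 (93.2 against 98.6) stayed near the floor. Antigen presentation genes were level: H2-K1 had 385 in tumour cells, against 382 in pre-injection cells and B2m had 3268 in tumour cells, against 3129.5 in pre-injection cells. Of 10 compared genes of that list, Pdia3, an ER thiol oxidoreductase, was the higher one with 4950.5 in tumour cells, against 2362 in pre-injection cells, and it was not 2-fold after quantile normalization. Among 8 surface ligands seen by immune cells, Cd47, a signal against phagocytosis, had 1231 in tumour cells, against 556 in pre-injection cells (2.21-fold), and it too was under 2-fold after quantile normalization.

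**Figure D4:**
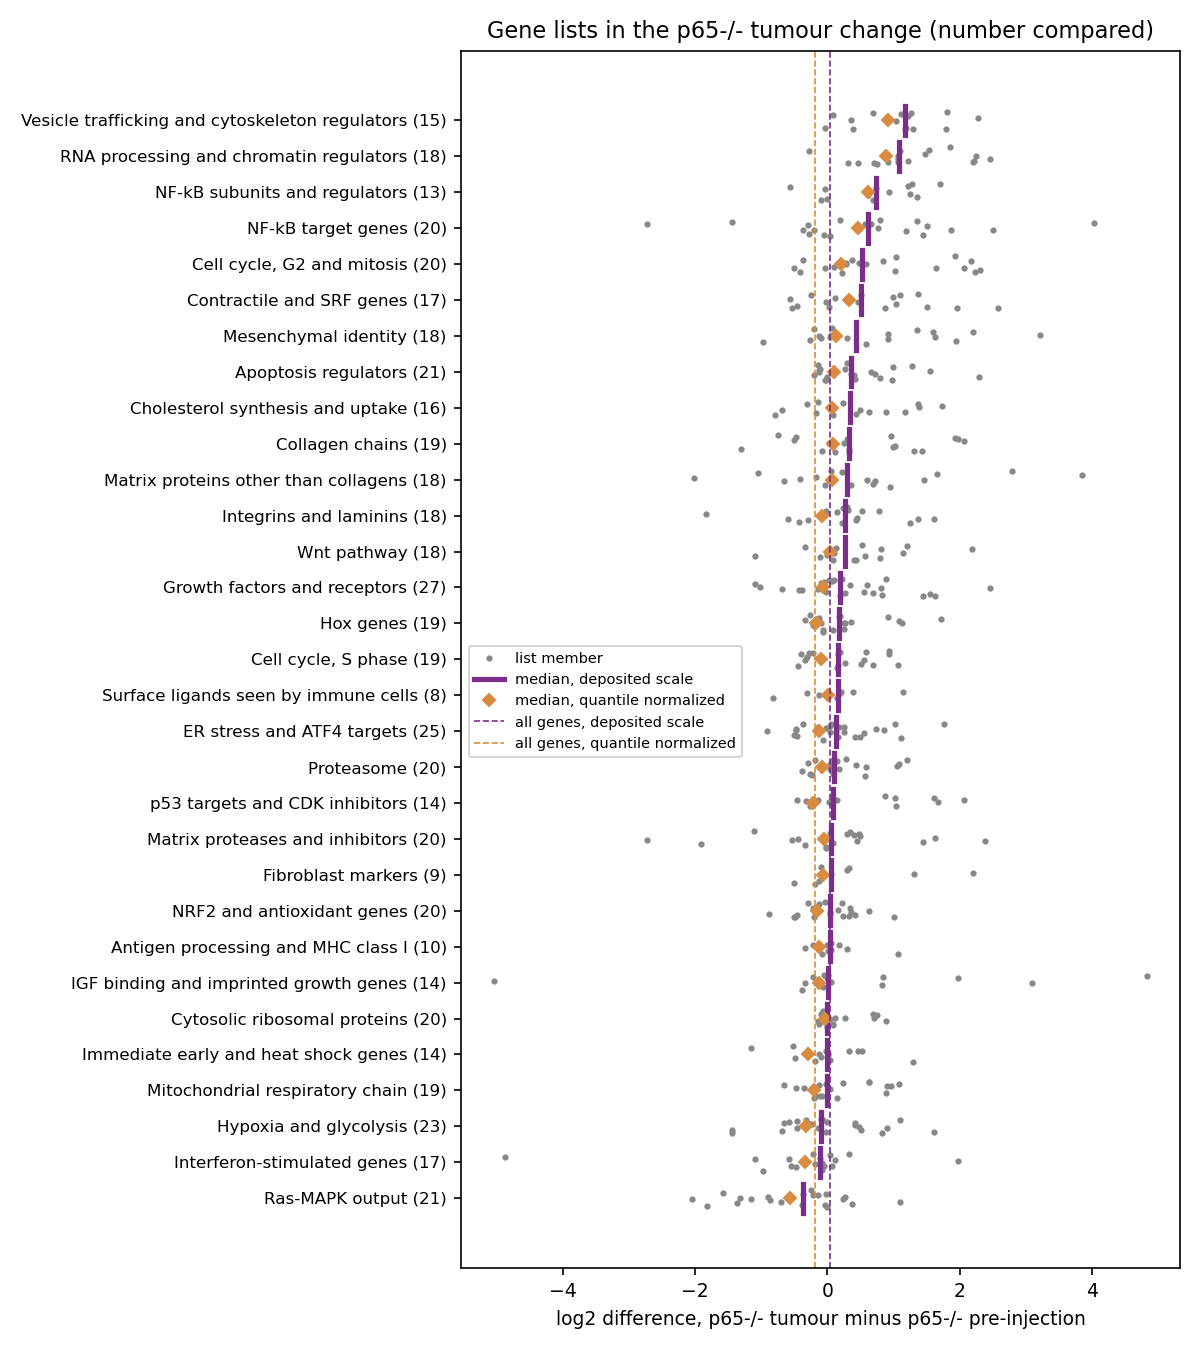
Log2 difference, p65-/- tumour minus pre-injection, of each member (grey) of the gene lists with 8 or more compared genes, with the list median on the deposited scale (purple bar) and after quantile normalization (orange diamond). Dashed lines are the medians of all compared genes, 0.03 and -0.18. Ras-MAPK output has the lowest list median (-0.37) and vesicle trafficking the highest (1.18), in lists chosen with earlier results of these data known.

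Genes of mitosis were higher in part, and those of DNA replication hardly at all. Of 20 mitotic genes 8 were higher (40.0%, against 13.7% of all compared genes) and none lower. The list median was 0.53 (0.21 after quantile normalization), and in 5 of the 8 higher genes the pre-injection array stood apart. Bub1, a kinase of the spindle checkpoint, had 793 in tumour cells, against 161 in pre-injection cells (4.93-fold). Kif11, the spindle motor Eg5, had 574 in tumour cells, against 122 in pre-injection cells (4.70-fold), and Top2a, a DNA topoisomerase of dividing cells, had 2384 in tumour cells, against 626 in pre-injection cells (3.81-fold). Other mitotic regulators were not higher, with Plk1 at 939 against 1330.2, Cdc20 at 1719 against 2296 and Aurka at 1166 against 1501. Of 19 S phase genes only Mcm4, a helicase subunit, reached 2-fold, with 2177 in tumour cells, against 1033 in pre-injection cells, and its partners Mcm2 (1815 against 1949), Mcm5 (1799 against 2438) and Mcm7 (2191 against 2538) did not.

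Among 14 p53 targets and CDK inhibitors 5 were higher (35.7%, against 13.7% of all compared genes) and none lower, with a median of 0.08. Beside Ccng1, Trp53inp1, a stress-induced p53 cofactor, had 281 in tumour cells, against 79.6 in pre-injection cells (at least 3.20-fold) and was under the floor in p65+/+ cells. Cdkn1b, the CDK inhibitor p27, had 491 in tumour cells, against 160.3 in pre-injection cells (3.06-fold). Mdm2, the ubiquitin ligase of p53, with 896 against 442, and Btg2, an antiproliferative gene, with 381 against 186, reached 2-fold on the deposited scale but not after quantile normalization. The best known p53 target, Cdkn1a, was level (1272 against 1533), as were Bbc3 and Phlda3, with log2 differences of 0.02 and -0.20. Of 21 apoptosis regulators 3 were higher and none lower, a share of 14.3% that is close to the 13.7% of all compared genes. Xiap, a caspase inhibitor, had 532 in tumour cells, against 109 in pre-injection cells (4.89-fold). Birc6, a very large relative of Xiap, had 608 in tumour cells, against 208 in pre-injection cells (2.92-fold), and Bid, which links caspase 8 to mitochondria, had 454 in tumour cells, against 186 in pre-injection cells (2.44-fold). For Bid 1 of 3 compared probe sets was 2-fold higher.

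Matrix genes moved in both directions. Of 19 collagen chains 6 were higher and 1 lower, which is 31.6% and 5.26%, against 13.7% and 1.48% of all compared genes. The median of the 19 was 0.32, and the 7 fibrillar chains had a median of 0.99. Col1a1, a chain of type I collagen, had 5962 in tumour cells, against 2409 in pre-injection cells (2.48-fold), and Col5a2, a chain of type V, had 5689 in tumour cells, against 2113 in pre-injection cells (2.69-fold). Both stood above all 3 other arrays, whereas Col3a1, the chain of type III, had 3692 in tumour cells, against 5263 in pre-injection cells and 7565 to 8661 in p65+/+ cells. Col8a1, Col11a1 and Col12a1 were 3.93-fold, at least 3.80-fold and 4.17-fold higher, and Col6a2 was 2.03-fold higher with 1729.9 against 851. For each of Col1a1, Col11a1 and Col12a1, 1 of 2 compared probe sets was 2-fold higher. Col1a2 was 1.25-fold higher in the probe set used, while 2 of its 3 compared probe sets were 2-fold higher. Col6a3, another chain of type VI, was the lower one, with 1887 in tumour cells, against 4655 in pre-injection cells (2.47-fold lower), and was lower in p65+/+ tumour cells too (869 against 2242).

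Of 18 other matrix proteins 4 were higher (22.2%) and 2 lower (11.1%), against 13.7% and 1.48% of all compared genes. Lox, the enzyme that crosslinks collagen and elastin, had 4833 in tumour cells, against 699 in pre-injection cells (6.91-fold). Vcan, a large proteoglycan, had 579 in tumour cells, against 184 in pre-injection cells (3.15-fold), and Tnc, tenascin C, had 956 in tumour cells, against 347 in pre-injection cells (2.75-fold). Thbs2, an inhibitor of vessel growth, was lower with 588 in tumour cells, against 2367 in pre-injection cells (4.02-fold lower, 3 of 3 probe sets), while its relative Thbs1 had 4418 in tumour cells, against 2746 in pre-injection cells. Cspg4, the NG2 proteoglycan, had 296 in tumour cells, against 609 in pre-injection cells (2.06-fold lower).

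Matrix proteases and their inhibitors split evenly, with 3 higher and 3 lower of 20. This is 15% each, against 13.7% and 1.48% of all compared genes. The 15 proteases held 2 higher and 2 lower genes, and the 5 inhibitors 1 of each. Adamts5, an aggrecanase, had 458 in tumour cells, against 42.7 in pre-injection cells (at least 5.22-fold), Adamts1 had 534 in tumour cells, against 197 in pre-injection cells (2.71-fold), and the inhibitor Timp3 had 669.9 in tumour cells, against 216 in pre-injection cells (3.09-fold). Mmp10, stromelysin 2, was lower together with Mmp3, at 65.2 in tumour cells, against 350.0 in pre-injection cells (at least 3.77-fold lower), and Serpinf1, an antiangiogenic serpin, had 1398 in tumour cells, against 3031 in pre-injection cells (2.17-fold lower). Among 18 integrins and laminins, Itgb1 and Itgav, chains of receptors for collagen, fibronectin and vitronectin, had 2775 against 909.8 and 2875 against 1109 in tumour against pre-injection cells. Nid1, which joins laminin to collagen, had 1332 against 561, and Itgb7, a leukocyte integrin chain, was the lower one with 108 against 385. Nid1 was under 2-fold after quantile normalization.

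Contractile genes and SRF targets included 6 higher and no lower gene of 17, or 35.3% higher against 13.7% of all compared genes. The list median was 0.51 (0.32 after quantile normalization). Beside Tagln, Ccn2, the connective tissue growth factor, had 4283 in tumour cells, against 1102 in pre-injection cells (3.89-fold), with 992 and 270.1 in p65+/+ cells. Ankrd1, a YAP and SRF responsive gene, had 527 in tumour cells, against 185 in pre-injection cells (2.85-fold). Cald1, which regulates actomyosin, had 3394 in tumour cells, against 1316 in pre-injection cells (2.58-fold), and Vcl, the focal adhesion protein vinculin whose promoter is printed above, had 2265 in tumour cells, against 1109 in pre-injection cells (2.04-fold). Srf itself was not higher, with 273 against 376, and Acta2, the smooth muscle actin of myofibroblasts, was under the floor on both p65-/- arrays (75.6 and 75.2).

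Of 18 genes of mesenchymal identity 6 were higher (33.3%, against 13.7% of all compared genes) and none lower, with a median of 0.44. Beside Cdh11, Thy1, a surface glycoprotein of fibroblasts, had 409 in tumour cells, against 88.6 in pre-injection cells (4.61-fold), below the p65+/+ signals of 993 and 1126. The 4 transcription factors among them were Snai2, Prrx1, Zeb1 and Tbx18, and in each the pre-injection array stood apart: Snai2 had 381 in tumour cells, against 98.9 in pre-injection cells, and Prrx1 had 1299 in tumour cells, against 419 in pre-injection cells. Zeb1 had 664 in tumour cells, against 261 in pre-injection cells, and Tbx18 had 278 in tumour cells, against 91.4 in pre-injection cells. Vim, vimentin, was among the strongest signals of both arrays and level, at 11619 in tumour cells, against 12482 in pre-injection cells.

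Growth factors and receptors had 4 higher and 2 lower genes of 27, and the 14.8% higher is close to the 13.7% of all compared genes. Fgf7, a fibroblast factor that acts on epithelium, had 1394 in tumour cells, against 254 in pre-injection cells (5.49-fold), and Inhba, the activin A subunit, had 590.2 in tumour cells, against 216 in pre-injection cells (2.74-fold). The TGF-beta receptors Tgfbr1 and Tgfbr3 were at least 2.94-fold and 3.10-fold higher. The ligand Tgfb1 was lower, with 219 in tumour cells, against 446 in pre-injection cells (2.03-fold lower). Fst, the activin antagonist follistatin, was lower with 218 in tumour cells, against 466 in pre-injection cells (2.13-fold lower), against a 7.95-fold higher level in p65+/+ tumour cells, 5908 against 743 before injection.

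Of 14 IGF binding and imprinted growth genes 3 were higher (21.4%) and 1 lower (7.14%), against 13.7% and 1.48% of all compared genes. Beside Grb10 and Ndn, Igfbp7, a secreted growth restraint, had 1244 in tumour cells, against 318 in pre-injection cells (3.92-fold). Peg3 (294 against 163) and Sgce (427 against 241), 2 further imprinted genes, did not reach 2-fold, and Dlk1 and Igf2 were level. In the Wnt list 3 of 18 were higher and 1 lower, and the 16.7% higher is near the share over all compared genes (13.7%). Dkk3, a secreted protein of the Dickkopf family, had 979 in tumour cells, against 215 in pre-injection cells (4.55-fold). Nkd2, an intracellular Wnt antagonist, had 64.1 in tumour cells, against 198 in pre-injection cells (at least 2.14-fold lower, 1 of 2 probe sets). The receptors Fzd1 and Lrp6 had 426 against 184 and 398 against 180.4, and both were under 2-fold after quantile normalization. Hox genes were largely level, with 3 of 19 higher (15.8%, again near 13.7%): Hoxd13 (483 against 147), Hoxd10 (347 against 159) and Hoxa5 (232 against 109.9). Hoxd10 and Hoxa5 were under 2-fold after quantile normalization. Hoxa11, with 924 against 808 in the p65-/- pair, read 16.9 and 18.1 in p65+/+ cells, so its level differed between the lines far more than between tumour and pre-injection cells of either.

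Glycolytic genes leaned to lower values without passing 2-fold, except for Eno3. The 13 glycolysis genes had a median of -0.33, with Eno3, the muscle enolase, at 381 in tumour cells, against 1038 in pre-injection cells (2.72-fold lower). Hk1 (1085 against 1752), Pfkl (2382 against 3763) and Slc2a1, the glucose transporter GLUT1 (1862 against 2777), were under 2-fold. The 10 hypoxia response genes had a median of 0.46, with Hif1a, the oxygen-regulated factor, at 2757 in tumour cells, against 903 in pre-injection cells (3.05-fold) and Bnip3, a mitophagy receptor, at 2276 against 1064. Egln3, an oxygen-sensing hydroxylase, was the lower one there, with 308 in tumour cells, against 834 in pre-injection cells (2.71-fold lower). Bnip3 was under 2-fold after quantile normalization.

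ER chaperones held 3 higher genes of 11, while none of 14 ATF4 targets reached 2-fold. Hsp90b1, the ER chaperone GRP94, had 4642 in tumour cells, against 1370.0 in pre-injection cells (3.39-fold), and Dnajc3 and Dnajb9 were 2.16-fold and 2.04-fold higher. Both Dnajc3 and Dnajb9 were under 2-fold after quantile normalization (log2 differences of 0.79 and 0.81), as was Dnajb9 in the authors' deposited table (0.95). Hspa5, the chaperone BiP, had 5351 in tumour cells, against 3203 in pre-injection cells, under 2-fold. Of 20 NRF2 and antioxidant genes Cat, catalase, was the 1 that reached 2-fold (882 against 438). This is 5.0% higher, against 13.7% of all compared genes, and Cat was under 2-fold after quantile normalization. Of 16 cholesterol genes 4 were higher and none lower on the deposited scale, against 13.7% and 1.48% of all compared genes. Tumour against pre-injection signals of the 4 were 1143 against 343 (Idi1), 2433 against 933 (Hmgcs1), 696 against 269 (Stard4) and 1414 against 625 (Sc5d). Others of the same pathway were level or lower, with Sqle at 3098 against 2620.3, Fdft1 at 1499.9 against 1462 and Mvd at 230.3 against 398. After quantile normalization 3 of the cholesterol genes were higher and 2 lower, with Sc5d under 2-fold (log2 difference of 0.80).

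The lists with the highest medians held large regulators of general use. Of 18 RNA processing and chromatin regulators 12 were higher and none lower, with a median of 1.08, and of 15 genes of vesicle trafficking and the cytoskeleton 10 were higher, with a median of 1.18. The share of higher genes was 66.7% in each list, against 13.7% of all compared genes. It was 20.6% in the fifth of genes with the longest spans and 29.1% in the fifth with the highest p65+/+ signal. Members of both lists were chosen with earlier results of these data known, so these shares describe the lists and test nothing. After quantile normalization the medians were 0.89 and 0.91, with 8 and 5 higher genes. In 9 of the 10 trafficking genes and 6 of the 12 RNA genes the pre-injection array stood apart. Rictor, a subunit of mTORC2, had 522 in tumour cells, against 95.05 in pre-injection cells (5.49-fold), still below the p65+/+ signals of 1369 and 1415. Of 4 compared Rictor probe sets, 1 was 2-fold higher. Smc3, a cohesin subunit, had 698 in tumour cells, against 148 in pre-injection cells (4.73-fold), and Kif5b, a kinesin heavy chain, had 832 in tumour cells, against 171 in pre-injection cells (4.87-fold). Rab5a, a GTPase of early endosomes, had 923 in tumour cells, against 263 in pre-injection cells (3.51-fold).

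Transcripts of cytosolic ribosomal proteins differed little. None of 20 cytosolic ribosomal protein genes reached 2-fold, with a median of 0.00, and Rplp0 had 11615 in tumour cells, against 11715 in pre-injection cells. Of 19 respiratory chain genes Ndufs1 was the 1 that reached 2-fold, and of 20 proteasome genes Psmd1, Psmd14 and Psma3 did, none of these 4 after quantile normalization. Heat shock and immediate early genes were mostly level, with Hspa8 at 3658 against 3614, Hspb1 higher at 439.8 against 179.6 and Egr1 lower.

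Most markers of macrophages, endothelium, lymphocytes and granulocytes were under the floor on both arrays. Of 13 macrophage markers 4 reached the floor in tumour cells and 3 in pre-injection cells, and their summed signal was 1344 against 1334. Cd68, Adgre1, Itgam, Ptprc, C1qa and C1qb, which define macrophages or leukocytes, were under the floor on both arrays in the probe set used. For C1qb 1 other probe set reached the floor on at least 1 of the 2 arrays and did not differ by 2-fold. Csf1r (243 in tumour against 236 in pre-injection cells), Cd14 (220 against 330) and Laptm5 (104 against 116) were above it on both and under 2-fold. Tyrobp, an adaptor of myeloid receptors, was the 1 that differed by 2-fold, with 278 in tumour cells, against 63.7 in pre-injection cells (at least 3.17-fold). The authors' deposited table has the opposite sign for Tyrobp, a quotient of -4.72, so its direction differs between the deposited files. The endothelial markers Cdh5, Kdr, Tek, Tie1, Emcn and Vwf were under the floor on both, and Cd34 was lower in tumour cells, as given above. Esam (130 against 113) and Pecam1 (99.9 against 94.4) were above the floor on both and level. Of 8 lymphocyte and granulocyte markers measured, 3 reached the floor on each array and none differed by 2-fold. The strongest of them was Cd3e, with 582 in tumour cells, against 671 in pre-injection cells. Of 8 skeletal muscle markers 5 reached the floor on each array, and of 6 fat cell markers 2 did, none differing by 2-fold. In bulk RNA, fewer cells of a type and less RNA per cell cannot be told apart.

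Of 10 fibroblast markers, which check the labelled cell type, 9 were above the floor on both arrays, with a summed signal of 46982 in tumour and 43837 in pre-injection cells, Fap being under the floor. Epithelial keratins were present in part: Krt19 had 2194 in tumour cells, against 338 in pre-injection cells (6.49-fold) and was under the floor in p65+/+ cells. Epcam, Cdh1 and Krt14 were under the floor on both p65-/- arrays in the probe set used. For Epcam 1 other probe set reached the floor on at least 1 of these arrays and did not differ by 2-fold. Of the Y-linked genes, Eif2s3y had 229 in tumour cells, against 34.7 in pre-injection cells, while Kdm5d and Uty were under the floor on both, as was Xist.

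Some genes differed by 2-fold in both genotypes, in the same or in opposite directions. Of 11328 genes compared in both, 73 differed by 2-fold or more in each. These are 3.97% of the 1838 genes counted in p65-/- cells, while of all 11328 genes 182 were counted in p65+/+ cells. They are 40.1% of those 182, while of all 11328 genes 16.2% were counted in p65-/- cells. Both shares take in either direction. Among the 73, 19 were higher in both, 9 lower in both, 25 higher in p65-/- and lower in p65+/+ tumour cells, and 20 the reverse. Opposite directions were thus more frequent than the same direction. The 2 changes share no array. Nefl, Mmp3, Mmp10, Cd34 and Col6a3 were among the genes lower in both, and Ccn1, Ccn2, Tnc, Adamts1 and Ifit2 among those higher in both. Ccn2 had a log2 difference of 1.96 in p65-/- and 1.88 in p65+/+ cells, and Ccn1 of 1.09 and 1.33.

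**Figure D5:**
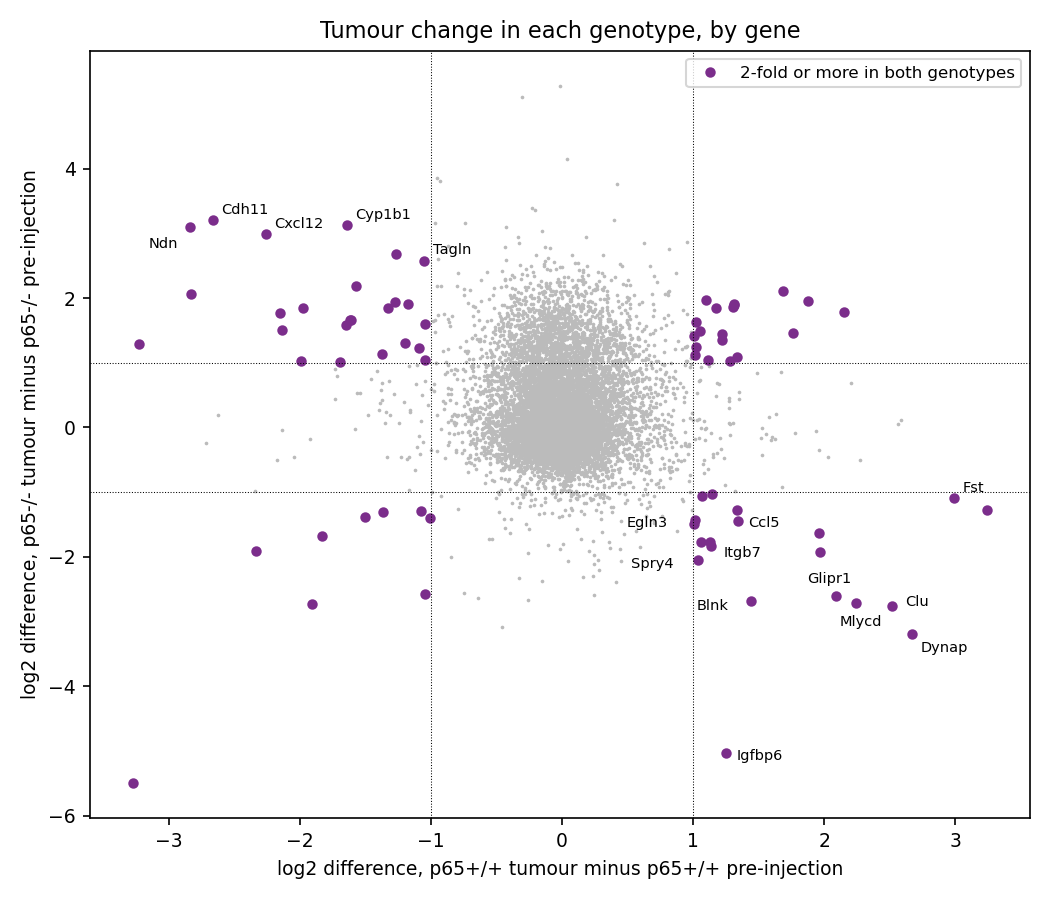
Log2 difference between tumour and pre-injection cells of each gene compared in both genotypes, p65-/- on the vertical and p65+/+ on the horizontal axis, with the 73 genes of 2-fold or more in both in purple and the named genes of opposite direction labelled. Dotted lines mark 2-fold; most of the 11328 genes lie within 2-fold in p65+/+ cells.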

How the data were processed

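Expression was measured in 4 samples with 1 Affymetrix array each, and 6 ug of total RNA were labelled with biotin per the labels' protocols. The main values were the series matrix deposited by the authors, which holds a linear intensity for each probe set. The steps from scanner image to these signals (probe summary, background, scaling) are not given in the sources used here. A deposited table named for log2 ratios holds a signed score, the quotient of the log2 signals of 2 arrays: 73.6% of 6991 probe sets with signals of at least 300 on both arrays, and 25.6% of all, matched that quotient within 0.02. It was used as an alternative only. Array-wide checks used the deposited scanner images, whose intensity was left without normalization per the file headers, 1004004 cells an array.

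Signals under 1 were set to 1 and converted to log2. Probe sets were named with the 2016 platform annotation, with symbols updated through the RefSeq gene table of GRCm38: 34945 had 1 gene, 932 several and 9160 none, and the last 2 kinds were left out. Each gene took its probe set of highest mean log2 signal over the 4 arrays, and probe sets whose suffix marks possible cross-hybridization served genes without another. The floor was the median signal of each array. A gene entered where 1 of the 2 arrays reached its floor. A signal under the floor was raised to it, and the ratio is then written with "at least". The fold is the deposited intensity of tumour over pre-injection cells, or its inverse for lower genes, and 2-fold or more was counted. Other floors (the 25th and 70th percentile), scalings (quantile normalization, a common 75th percentile, a common median, cyclic loess), the mean of all probe sets and a 3-fold threshold were tried. With 1 array a group no test was run, and precision is limited by the number of arrays. The depth of an array is its signal, not a count.

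The 38 gene lists held 755 entries, 688 with a probe set of their own. The members and lists were chosen with earlier results of these data known. Genes were named by rule: the 15 largest differences in each direction with both arrays at or above the floor and the 8 largest with 1 array under it, each also 2-fold after quantile normalization and in a share of at least 0.5 of its compared probe sets, up to 5 members of each list with any member that a small count refers to, the 6 largest of each direction where 1 of the 2 arrays stood apart, and markers. Members beyond these are given for contrast and were chosen after their values were seen. Promoter windows came from RefSeq on GRCm38.p6. Counting was tested on simulated arrays. Python 3.11.15, numpy 2.4.6, pandas 2.3.3, R 4.3.3 and limma 3.58.1 were used.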

Additional observations from a re-analysis of the deposited data

Results flagged for a closer look

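Among the named genes, 16 differed by 2-fold or more in opposite directions in the 2 genotypes, which flagged them. Each value is the log2 tumour change of p65-/- cells minus that of p65+/+ cells, from 4 arrays, and the difference was not tested.

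Higher in p65-/- and lower in p65+/+ tumour cells were Ndn at 5.93, Cdh11 at 5.87, Cxcl12 at 5.24, Cyp1b1 at 4.77 and Tagln at 3.63. Lower in p65-/- and higher in p65+/+ tumour cells were Igfbp6 at -6.29, Dynap at -5.86, Clu at -5.28, Mlycd at -4.95, Glipr1 at -4.69, Blnk at -4.13, Fst at -4.08, Spry4 at -3.08, Itgb7 at -2.97, Ccl5 at -2.78 and Egln3 at -2.45. Dynap, which encodes a dynactin-associated protein, had 22.8 in tumour cells, against 844 in pre-injection cells, and 713 on the p65+/+ tumour and 112 on the p65+/+ pre-injection array. Mlycd, malonyl-CoA decarboxylase, had 95.02 in tumour cells, against 622 in pre-injection cells, and 633 on the p65+/+ tumour and 134 on the p65+/+ pre-injection array. Where an array was under its floor the change is a bound, as for Igfbp6, Dynap, Clu, Blnk and Spry4 in p65-/- tumour cells, Cdh11 and Cyp1b1 in p65-/- pre-injection cells and Ndn, Cdh11 and Cyp1b1 in p65+/+ tumour cells.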

How the results depend on the processing

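No gene named and counted at 2-fold (155 of 225 compared) changed direction under any other scaling, floor or averaging of probe sets. Under all 4 scalings 129 stayed 2-fold, and Ereg, Tnfaip3, Mdm2, Ccn1, Cd47 and Mcm4 were among those that did not. The lack of reversals is a weak check. A common 75th percentile or median moves every gene by the same small amount, too little to reverse a 2-fold difference. The genes with the largest differences were named only if 2-fold after quantile normalization, so that step could not reverse them. The count of lower genes, 184, was 428 after quantile normalization, 357 at a common 75th percentile, 103 with the floor at the 70th percentile, 60 at 3-fold and 1027 from the authors' deposited table, which shared 118 with the main count. The count of higher genes, 1705, was 1088 at a common 75th percentile, 1090 with the mean of all probe sets and 607 at 3-fold. Higher genes with the pre-injection array apart, 1108, numbered 698 after quantile normalization, 645 at a common 75th percentile, 690.0 with the mean of all probe sets and 413 at 3-fold, and the lower ones, 53, numbered 180, 142, 30 (floor at the 70th percentile) and 21 (3-fold). With the tumour array apart, the 37 lower genes became 20 with the higher floor and 18 at 3-fold, and the 67 higher genes became 37 at 3-fold. List medians that changed sign were, after quantile normalization, S phase -0.10, integrins and laminins -0.085, growth factors -0.064, ER stress and ATF4 targets -0.12 and Hox -0.16. At a common 75th percentile they were surface ligands -0.13, S phase -0.12, integrins and laminins -0.015, growth factors -0.10, Wnt -0.019, ER stress -0.15, Hox -0.12 and epithelial markers -0.16. With loess they were S phase -0.075 and ER stress -0.069, with the lower floor surface ligands -0.12, and with the authors' deposited table epithelial markers -0.39. The cause was not tested. Of 126 counted genes with a value implied by the authors' deposited table, 116 were 2-fold in the same direction there. No value could be implied for the 29 others, which have an array under its floor; the sign of their quotient was the same for 28 and opposite for Tyrobp (-4.72), and its size was smaller than in the series matrix for Cep128 (1.23 against 2.05), Mospd1 (1.07 against 1.82), Npy5r (1.02 against 1.92) and Ifitm1 (-1.57 against -2.09). Enho (-0.13 against -2.12 in the series matrix) and Shisa7 (-0.86 against -2.67) were among the 10 that were not. No paired analysis was possible because the labels give no replicate numbers and each group has 1 array, which is also why no array could be left out.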
